A study of Homo sapiens with 6 samples.

Results

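The AP-1 and early growth response factors described here are 10 genes given by name, namely FOS, FOSB, FOSL1, FOSL2, JUN, JUNB, JUND, EGR1, IER2 and IER3. Each symbol matched 1 row of the deposited count table, so that 10 of its 35106 genes were members, and all 10 were among the 13548 genes with enough counts to be tested. RNA was sequenced from HCT116, an established human colon carcinoma cell line, in 3 libraries labelled Control (treatment none) and 3 libraries labelled shikonin. Shikonin is a naphthoquinone from the roots of plants of the borage family. The labels give 8 μM for 24 h and wild type as the genotype of every library, whereas the methods of the study give a lower dose. The methods dissolve shikonin in DMSO, and whether the controls received DMSO is not in the labels. Every direction below follows the sample labels. No source says that replicate libraries were separate cultures, and p-values therefore measure only the spread between these libraries, which may be technical.

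AP-1 is a pair of leucine zipper proteins that binds DNA, with at least 1 member of the JUN family in each pair. JUN, JUNB and JUND can pair with each other, whereas the FOS proteins need a JUN partner. Many of these genes are immediate early genes: growth factors and stress switch them on within minutes through ERK, JNK and p38 kinases, and the messages of FOS, EGR1 and IER2 decay quickly. EGR1 is a zinc finger activator of GC-rich promoters. FOSL1 is known as a member that sustained ERK activity keeps high. The libraries sampled these genes once, after a long exposure, and hold no early time point.

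The libraries held between 18845690 and 21765806 estimated counts. Mitochondrially encoded genes took 4.27% to 5.16% of each control library and 4.55% to 6.99% of each shikonin library, with the highest share in shikonin replicate 1. Of 8 epithelial markers, 7 were tested, and KRT19 was higher (log2 fold change 0.28, adjusted p = 0.0496 with edgeR). Their summed level was 3989 to 4304 CPM in the control libraries and 3983 to 4674 in the shikonin libraries, where CPM is the usual unit of counts relative to library size, here with edgeR's trimmed mean of M values (TMM) as the scaling. The fibroblast markers DCN and LUM, the leukocyte markers CD3E and MS4A1 and the endothelial marker CDH5 were at 0 counts in all libraries. The summed markers of leukocytes and of endothelium did not exceed 2.97 CPM in any library. Those of fibroblasts lay between 26.95 and 35.74 CPM, nearly all of it from COL1A1 (32.4 CPM in the control group and 31.05 in the shikonin treatment group).

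Of the 10 members, 2 rose (FOSL1 and FOSB), 4 fell (EGR1, JUNB, FOSL2 and IER2) and 4 did not pass the test (FOS, JUN, JUND and IER3). The test was edgeR's quasi-likelihood test. Calls were made where p, adjusted by the Benjamini-Hochberg method over all genes tested, was under 0.05. In this comparison 21.9% of all tested genes were called, 10.8% as higher and 11.1% as lower. The median log2 fold change of the members was 0.18, and that of all tested genes was -0.015. The members' median lies between JUND (0.17) and JUN (0.19), neither of which was called. It also counts IER3, which passed the filter on low counts through the shikonin libraries, so it shows no rise of the set. Among the genes with a FOS name and among those with a JUN name, the changes differed in direction or in whether they passed the test. All 6 called members kept their direction in each alternative, and no member passed a test against a fold of 1.5. With scaling by library totals alone, 1033 genes of the whole table were higher and 2150 lower, against 1460 and 1504 with the scaling used here, and the same 6 members were called. The counts over the whole table also moved when 1 library was left out. Leaving out control replicate 1 gave 861 higher and 776 lower genes, and leaving out control replicate 2 gave 932 and 866. Leaving out shikonin replicate 2 gave 943 and 957. Leaving out shikonin replicate 1 gave 972 lower genes.

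**Figure D1:**
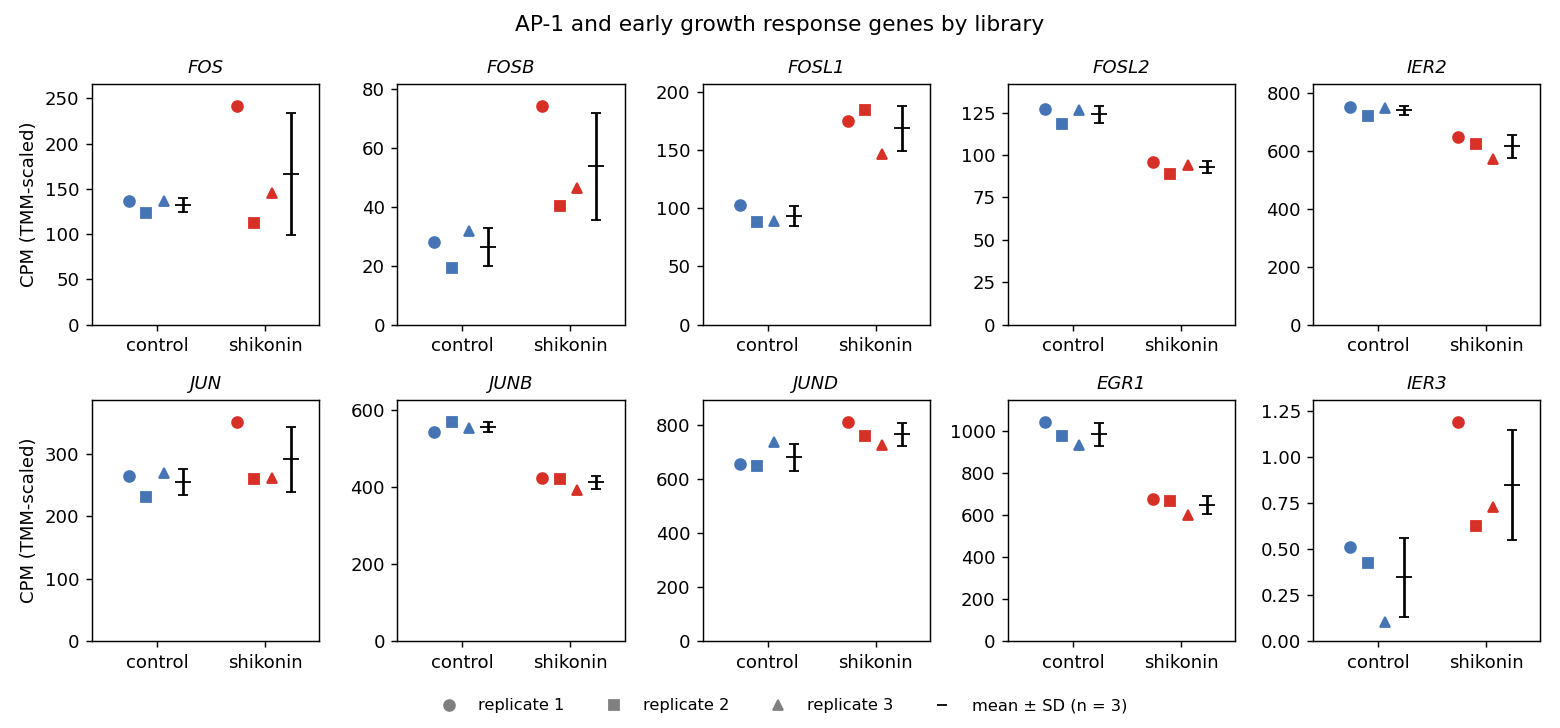
Level of each of the 10 genes in each library, in TMM-scaled CPM (linear axes from 0), with 1 point per library, a symbol per replicate number and a bar for mean ± SD (n = 3) beside each group. FOSL1, FOSB and IER3 lie higher in every shikonin library than in any control library, EGR1, JUNB, FOSL2 and IER2 lie lower, and FOS, JUN and JUND overlap.

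Promoter sequence was at hand for 8 of the 10 members. It is shown for EGR1 and JUNB, which fell, for FOSB, which rose, and for FOS, which did not pass the test. Of the 8, these alone held a CArG box or TATAAA in the window searched. The sequences come from RefSeq (GRCh38.p14) and cover the 250 bases before the annotated start of each gene, 5′ to 3′ on the strand of the gene. Capitals mark matches, on either strand, to the CArG box bound by serum response factor, to the TATA motif TATAAA and to TGACG, the first part of the cyclic AMP response element TGACGTCA, in which it lies on both strands. A TGACG on the other strand reads as CGTCA. EGR1 lies at chr5:138465229-138465478 (plus strand), FOS at chr14:75278578-75278827 (plus strand), FOSB at chr19:45467746-45467995 (plus strand) and JUNB at chr19:12791236-12791485 (plus strand).
EGR1: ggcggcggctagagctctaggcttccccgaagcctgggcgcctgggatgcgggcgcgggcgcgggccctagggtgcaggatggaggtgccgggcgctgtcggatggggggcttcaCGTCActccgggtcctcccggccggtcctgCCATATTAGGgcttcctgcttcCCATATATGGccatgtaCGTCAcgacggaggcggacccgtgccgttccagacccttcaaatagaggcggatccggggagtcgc
JUNB: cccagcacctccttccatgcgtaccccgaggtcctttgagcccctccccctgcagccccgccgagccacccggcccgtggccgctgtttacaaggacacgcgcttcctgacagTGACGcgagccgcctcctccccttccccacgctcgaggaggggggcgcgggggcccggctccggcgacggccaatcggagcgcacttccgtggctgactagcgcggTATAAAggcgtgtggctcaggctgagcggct
FOSB: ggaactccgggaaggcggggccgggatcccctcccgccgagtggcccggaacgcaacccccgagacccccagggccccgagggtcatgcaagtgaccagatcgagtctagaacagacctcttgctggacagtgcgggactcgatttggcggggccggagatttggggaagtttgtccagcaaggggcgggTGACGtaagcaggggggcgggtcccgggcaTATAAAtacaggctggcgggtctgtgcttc
FOS: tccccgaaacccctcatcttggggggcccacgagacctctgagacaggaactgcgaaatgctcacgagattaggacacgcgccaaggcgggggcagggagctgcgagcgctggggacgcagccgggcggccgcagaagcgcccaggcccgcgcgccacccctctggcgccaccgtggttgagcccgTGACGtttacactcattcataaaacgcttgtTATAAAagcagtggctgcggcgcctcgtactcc
The 2 CArG boxes of EGR1 begin 105 and 83 bases before the start, and no other of the 8 members had one in this window, against 1.16% of 35116 promoters of the same length. TATAAA stood 33 bases before the start in FOS, 31 in JUNB and 30 in FOSB, and 10.7% of all promoters held it. TGACG was found in all 8 members and in 21.2% of all promoters, beginning 64 bases before the start in FOS and 60 in FOSB. The 35116 promoters were not matched to the members for GC content. The full element TGACGTCA was found in JUND (1.65% of all promoters) and its variant TGACATCA in JUN, 67 bases before the start (2.37% of all promoters). An exact match to the AP-1 site TGACTCA was in none of the 8 windows and in 4.2% of all promoters. TATAAA and TGACG both stand in FOSB, which rose, in JUNB, which fell, and in FOS, which did not pass the test. The part of these motifs in the changes was not tested. These matches describe letters in a window, and no binding was measured. Sequence farther upstream was not searched, so an element outside the window would be missed.

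FOSL1 had the smallest p-value of the 10 genes. It encodes FRA-1, a FOS protein without the strong activation domain of FOS, and lies at chr11:65892049-65900573 (GRCh38, minus strand, 4 exons). Its level was 102.9, 88.5 and 88.7 CPM in the control libraries and 174.7, 184.4 and 146.6 CPM in the shikonin libraries. The lowest shikonin library was well above the highest control library. The mean rose from 93.4 ± 8.26 to 168.6 ± 19.6 CPM (SD, n = 3 each), a fold of 1.81 with a 95% interval of 1.58 to 2.07 (log2 fold change 0.85 with a standard error of 0.091, adjusted p = 3.27e-05 with edgeR). By p-value it ranked 57 among the 13548 genes. With any 1 library left out, its log2 fold change stayed between 0.78 and 0.97 and its call held. FOSL1 has a processed pseudogene, FOSL1P1, that was at 0.22 CPM in shikonin replicate 2 and at 0 in the other 5 libraries.

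FOSB had the largest fold of the called members, from a low level. Its protein pairs with JUN proteins as FOS does. FOSB, at chr19:45467995-45475179 (plus strand, 4 exons), was at 28.2, 19.2 and 31.9 CPM in the controls and at 74.4, 40.3 and 46.5 CPM in the shikonin libraries. All 3 shikonin libraries were above the control libraries, and shikonin replicate 1 stood far above the other two. The mean went from 26.4 ± 6.52 to 53.7 ± 18.1 CPM (SD, n = 3 each), a fold of 2.04 (95% interval 1.52 to 2.73, log2 fold change 1.03 with a standard error of 0.20, adjusted p = 0.00244 with edgeR). Without shikonin replicate 1 the log2 fold change was 0.72 and the gene was still called (adjusted p = 0.0095). The locus overlaps ERCC1 on the other strand, which was at 59.8 to 73.5 CPM in the control libraries and 75.7 to 84 CPM in the shikonin libraries and did not pass the test (adjusted p = 0.0738). The counting is not stated to use strand, so reads of the overlapping parts cannot be told apart.

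EGR1 showed the largest fall. The gene, at chr5:138465479-138469303 (plus strand, 2 exons), was at 1044, 979.7 and 935.4 CPM in the controls and at 676.6, 667.9 and 599.4 CPM in the shikonin libraries. The groups were widely apart. The mean fell from 986 ± 54.5 to 648 ± 42.3 CPM (SD, n = 3 each), a fold of 0.657 (95% interval 0.582 to 0.742, log2 fold change -0.61 with a standard error of 0.082, adjusted p = 0.000211 with edgeR). Even so, it remained one of the most abundant messages of the set. In bulk RNA, fewer cells that express a gene and less RNA per cell cannot be told apart. With any 1 library left out the log2 fold change stayed between -0.64 and -0.53. Its relative EGR3 fell as well, from 27.6 to 20.7 CPM (log2 fold change -0.41, adjusted p = 0.0118), whereas EGR2 at 12.5 and 10.8 CPM (adjusted p = 0.304) and EGR4 at 1.05 and 1.55 CPM (adjusted p = 0.32) did not pass. EGR2, EGR3 and EGR4 are named after their values were seen.

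JUNB, which can restrain JUN at some promoters and replace it at others, fell with little spread between libraries. The single-exon gene at chr19:12791486-12793315 (plus strand) was at 542.6, 568.7 and 554.4 CPM in the controls and at 424.3, 420.2 and 392.6 CPM in the shikonin libraries. The 2 groups were tight and did not overlap. The mean fell from 555 ± 13.1 to 412 ± 17.2 CPM (SD, n = 3 each), a fold of 0.743 (95% interval 0.667 to 0.827, log2 fold change -0.43 with a standard error of 0.073, adjusted p = 0.00105 with edgeR). HOOK2, on the other strand of the same locus, moved the other way, from 36.3 to 39 CPM in the control libraries up to 45.5 to 52.9 CPM in the shikonin libraries (log2 fold change 0.36, adjusted p = 0.00821).

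FOSL2 fell by nearly the same factor as JUNB. It encodes FRA-2, the other FOS protein without a strong activation domain, at chr2:28392448-28417317 (plus strand, 4 exons). FOSL2 was at 127.4, 118.2 and 126.5 CPM in the controls and at 95.7, 89.0 and 94.3 CPM in the shikonin libraries. Every shikonin library was under every control library. The mean fell from 124 ± 5.08 to 93 ± 3.55 CPM (SD, n = 3 each), a fold of 0.75 (95% interval 0.676 to 0.831, log2 fold change -0.42 with a standard error of 0.070, adjusted p = 0.000967 with edgeR). The 2 FRA genes thus changed in opposite directions. The ratio of FOSL1 to FOSL2, both per kilobase of transcript, was 3.19, 2.95 and 2.77 in the control libraries and 7.2, 8.17 and 6.13 in the shikonin libraries.

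IER2, a nuclear protein made early after growth stimulation, fell least and least firmly. The gene, at chr19:13150411-13154911 (plus strand, 2 exons), was at 749.6, 719.3 and 747.5 CPM in the controls and at 648.6, 624.7 and 571.8 CPM in the shikonin libraries. The groups did not overlap. The mean fell from 739 ± 16.9 to 615 ± 39.3 CPM (SD, n = 3 each), a fold of 0.833 (95% interval 0.742 to 0.934, log2 fold change -0.26 with a standard error of 0.078, adjusted p = 0.0248 with edgeR). Its call was lost without control replicate 1 (adjusted p = 0.108), control replicate 2 (adjusted p = 0.0667), control replicate 3 (adjusted p = 0.0714) or shikonin replicate 2 (adjusted p = 0.055). The adjusted p over all alternatives ran from 0.00118 to 1.

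FOS, the founding member and the partner of JUN in the classical AP-1 pair, did not pass the test. FOS lies at chr14:75278826-75282230 (plus strand, 4 exons). Its level was 136.4, 123.1 and 137.1 CPM in the control libraries and 242.2, 112.1 and 146 CPM in the shikonin libraries. Shikonin replicate 1 was the highest of all 6 and shikonin replicate 2 the lowest. The fold was 1.26 (95% interval 0.96 to 1.66, log2 fold change 0.34 with a standard error of 0.19, adjusted p = 0.214 with edgeR). This value rested on shikonin replicate 1, without which the log2 fold change was -0.034 (adjusted p = 0.871). FOS passed the test without shikonin replicate 2 (log2 fold change 0.55, adjusted p = 0.0294) and with no filter on low counts (adjusted p = 0.000602). In the latter its log2 fold change stayed at 0.33, and FOS held 2038 or more estimated counts in every library. Only the p-value moved there, and not for FOS alone. The adjusted p from edgeR went from 0.00244 to 2.45e-23 for FOSB and from 0.162 to 0.22 for JUND.

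JUN, the strongest activator of its family, is a single-exon gene at chr1:58776845-58784048 (minus strand). It was at 264.5, 231.6 and 269.1 CPM in the controls and at 350.7, 259.9 and 262 CPM in the shikonin libraries. Only shikonin replicate 1 stood outside the range of the control group. The fold was 1.14 (95% interval 0.974 to 1.33, log2 fold change 0.19 with a standard error of 0.11, adjusted p = 0.223 with edgeR), and without shikonin replicate 1 the log2 fold change was 0.033 (adjusted p = 0.853).

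JUND, the member that most cells make at a steady level, is a single-exon gene at chr19:18279694-18281622 (minus strand). It was at 655.4, 648.1 and 737.6 CPM in the controls and at 809.6, 758.8 and 724.1 CPM in the shikonin libraries. The groups overlapped, since control replicate 3 was above shikonin replicate 3. The fold was 1.12 (95% interval 0.995 to 1.27, log2 fold change 0.17 with a standard error of 0.082, adjusted p = 0.162 with edgeR). Without shikonin replicate 3 JUND was called (log2 fold change 0.23, adjusted p = 0.0285).

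IER3, a stress-induced gene whose product protects cells from apoptosis, was barely counted. It lies in the major histocompatibility region at chr6:30743199-30744548 (minus strand, 2 exons) and held 9.84, 8.37 and 2.14 estimated counts in the controls against 24.8, 11.4 and 14.7 in the shikonin libraries. The groups did not overlap, but at this depth the 95% interval of the fold ran from 1.07 to 5.78 (fold 2.49, log2 fold change 1.32 with a standard error of 0.57, adjusted p = 0.114 with edgeR). The gene passed the filter on low counts through the shikonin libraries, where it was higher. Of 65 other protein-coding genes of the table within 1 Mb of it, 25 (38.5%) were at 0 in all libraries, against 16% of all 19741 protein-coding genes. How reads of this region were assigned is not stated, and its part in the low count of IER3 was not tested.

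**Figure D2:**
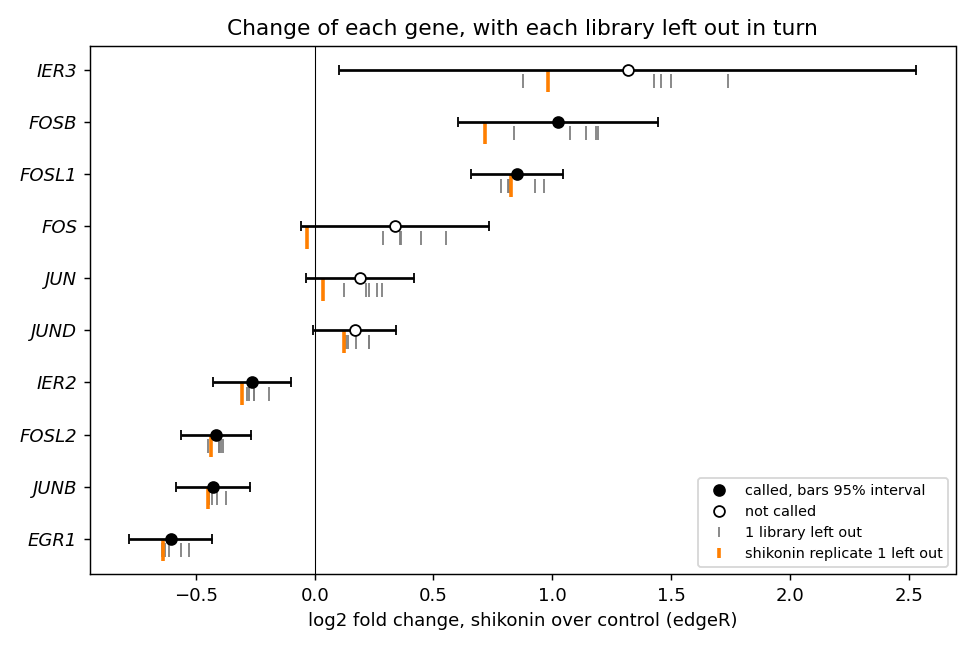
Log2 fold change of shikonin over control for each gene, from edgeR, with its 95% interval (filled points, called at an adjusted p under 0.05) and with the value after each library was left out (ticks under the point). The orange tick leaves out shikonin replicate 1 and moves FOS from 0.34 to -0.034 and JUN from 0.19 to 0.033, while FOSL1, EGR1, JUNB and FOSL2 stay near their values.

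Within the shikonin treatment group, replicate 1 had the highest level in 9 of the 10 members, all but FOSL1. Among tested genes whose mean count was 50 or more, replicate 1 was the highest of its group in 28.3%. IER3, one of the 9, is below that count and outside this background. The log2 ratio of replicate 1 to the mean of the other two was 0.91 in FOS, 0.78 in FOSB, 0.81 in IER3 and 0.43 in JUN, and between 0.062 and 0.13 in the other members. For FOS it was above that of 99.9% of these genes, for FOSB above 99.8% and for JUN above 98.3%, with a median of -0.0060. Thus FOS, FOSB and JUN were high in the same library. It is also the library with 6.99% of its counts from mitochondrially encoded genes, and the part of this in the levels of FOS, FOSB and JUN was not tested.

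Levels can be compared between genes only per length, and for this CPM was divided by the length in kilobases of the canonical transcript in GENCODE release 44. In the control group JUND (353 ± 25.8 CPM per kilobase, SD, n = 3) and IER2 (350.1 ± 8.02) were highest and did not differ beyond their spread, nor did the next, EGR1 (314 ± 17.4) and JUNB (303 ± 7.15). JUN (78.3 ± 6.28) came next, then FOS (62.8 ± 3.74) and FOSL1 (54.9 ± 4.85), whose libraries overlapped. FOSL2 (18.5 ± 0.757), FOSB (7.01 ± 1.73) and IER3 (0.28 ± 0.172) followed without overlap. Thus the control cells held far more message of JUND and JUNB than of JUN or of any FOS gene. In the shikonin treatment group JUND (396 ± 22.3) stood above IER2 (291.5 ± 18.6), JUNB (225 ± 9.42) and EGR1 (206.5 ± 13.5), of which the last 2 overlapped. FOSL1 (99 ± 11.5) had moved above JUN (89.3 ± 15.9) and FOS (79.2 ± 32.1) in the order of the means, but the libraries of neighbouring genes overlapped. FOSB (14.2 ± 4.8) and FOSL2 (13.9 ± 0.528) could no longer be told apart, and IER3 (0.687 ± 0.243) remained last. With the union of all annotated exons as the length, IER2 fell to 239.9 CPM per kilobase in the control group and stood under EGR1 and JUNB, and FOSL1 (49.5) stood above FOS (41.5).

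**Figure D3:**
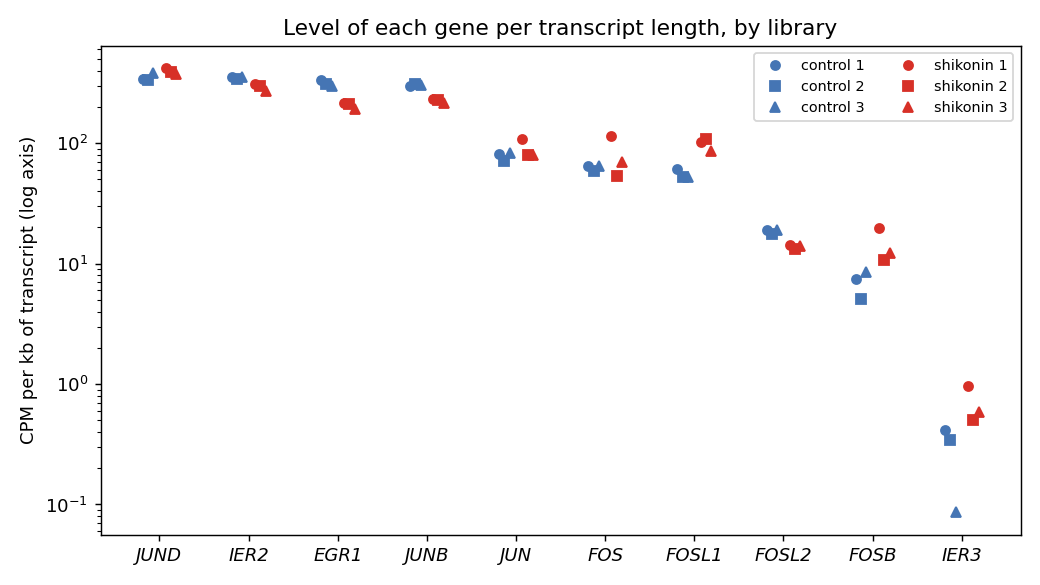
Level of each gene per kilobase of canonical transcript (log axis), with 1 point per library. In the group means, JUND, IER2, EGR1 and JUNB lie above 200 CPM per kilobase, JUN, FOS and FOSL1 between 54.9 and 99, and IER3 under 1. Single libraries of JUN, FOS and FOSL1 lie outside that range.

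Added up per kilobase, the 4 FOS genes came to 151.8, 133.2 and 144.6 CPM in the control libraries and to 251.7, 185.5 and 181.9 in the shikonin libraries. The 3 JUN genes came to 717.5, 717.8 and 768 CPM in the control libraries and to 759.2, 702.8 and 670.3 in the shikonin libraries. The FOS sums thus lay apart and the JUN sums overlapped. Within the FOS genes, the share of FOSL2 went from 12.9% ± 0.372 to 6.84% ± 1.06 (SD, n = 3 each), and that of FOSL1 from 38.3% ± 1.99 to 48.8% ± 8.9. In shikonin replicate 1, where FOS was high, FOSL1 made up 40.8%, against 58.4% and 47.4% in the other two. Within the JUN genes, the share of JUNB went from 41.4% ± 1.92 to 31.7% ± 1.09 and that of JUND from 48% ± 1.59 to 55.8% ± 0.408. The ratio of JUND to JUNB was 1.15, 1.08 and 1.26 in the control libraries and 1.81, 1.71 and 1.75 in the shikonin libraries. These sums and shares are descriptions of messages and say nothing of the proteins.

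**Figure D4:**
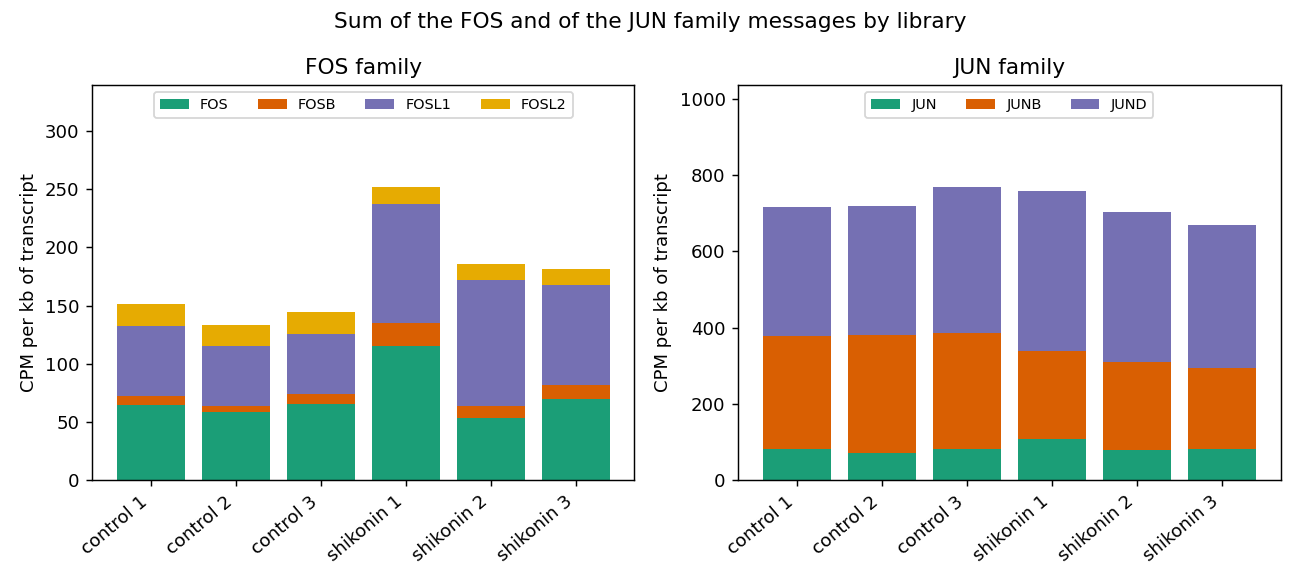
Sum of the FOS family and of the JUN family messages in each library, in CPM per kilobase of canonical transcript (axes from 0), with 1 stacked bar per library coloured by gene. The FOS sum is 133 to 152 in the control libraries and 182 to 252 in the shikonin libraries, where FOSL1 takes more and FOSL2 less of it, and the JUN sums overlap while JUNB takes less.

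Related genes were read from 4 lists compiled by hand from general knowledge, with earlier results of these data known. Among all tested genes, 10.8% rose and 11.1% fell. Of 11 tested leucine zipper partners of AP-1, 2 rose, none fell and 9 did not pass (median log2 fold change 0.12, against -0.015 over all tested genes). Both that rose encode small MAF proteins, which have a zipper but no activation domain. MAFG went from 292 ± 14 to 373 ± 28.9 CPM (log2 fold change 0.36, adjusted p = 0.00561 with edgeR) and MAFF from 84.8 ± 7.2 to 110 ± 9.75 CPM (log2 fold change 0.37, adjusted p = 0.0061). Without shikonin replicate 3, 4 of the partners rose, and without shikonin replicate 2, 1 fell. ATF3, a partner induced by stress and named after its values were seen, was at 99 and 115 CPM and did not pass (adjusted p = 0.109). BATF and MAF were not tested.

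The other immediate early genes moved in both directions. Of 32, all tested, 5 rose, 7 fell and 20 did not pass (median log2 fold change -0.015), where 10.8% of all tested genes rose and 11.1% fell. PPP1R15A, which helps translation recover after stress, went from 133 ± 12.3 to 229 ± 22.7 CPM (log2 fold change 0.78, adjusted p = 5.21e-05 with edgeR), and KLF4, a factor of epithelial differentiation, from 92.5 ± 3.04 to 132 ± 5.51 CPM (log2 fold change 0.52, adjusted p = 0.000192). PHLDA1 rose by 0.33 on the log2 scale (adjusted p = 0.00711), and ZFP36L1, which speeds the decay of AU-rich messages, by 0.27 (adjusted p = 0.0325). CCN1, a matrix protein, fell from 57 ± 5.71 to 36.7 ± 7.06 CPM (log2 fold change -0.64, adjusted p = 0.00235). KLF6 changed by -0.37 on the log2 scale (adjusted p = 0.00332), the nuclear receptor gene NR4A2 by -0.41 (adjusted p = 0.00485) and the survival gene MCL1 by -0.32 (adjusted p = 0.00523). The number that rose was 3 with scaling by library totals alone. It was also 3 when control replicate 2, control replicate 3 or shikonin replicate 2 was left out, and 9 when shikonin replicate 3 was.

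Upstream of the members, of 26 tested kinases and factors of the ERK, JNK and p38 routes, 2 rose, 2 fell and 22 did not pass (median log2 fold change -0.060), where 10.8% of all tested genes rose and 11.1% fell. MAPK12 rose by 0.32 on the log2 scale (adjusted p = 0.013 with edgeR) and the JNK kinase gene MAP2K7 by 0.27 (adjusted p = 0.0234). MRTFB, a coactivator of serum response factor, changed by -0.36 (adjusted p = 0.00315). Without control replicate 1 or control replicate 3 none rose, and without shikonin replicate 2 only 1 did. With any single library left out except shikonin replicate 3, 1 fell, and without shikonin replicate 3, 5 fell. With scaling by library totals alone 1 rose and 5 fell. These kinases act mainly through phosphorylation, which was not measured.

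Of 27 listed genes with AP-1 sites in their control regions, 19 were tested, of which 8 rose, 2 fell and 9 did not pass (median log2 fold change 0.25, against -0.015 over all tested genes). Among all tested genes 10.8% rose and 11.1% fell, and the list was chosen with earlier results of these data known. The EGF receptor ligand gene AREG was at 459, 475.7 and 418.6 CPM in the controls and at 716.1, 777 and 826.8 CPM in the shikonin libraries (log2 fold change 0.78, adjusted p = 3.16e-05 with edgeR). EREG, another such ligand, went from 570 ± 49.4 to 1045 ± 153.6 CPM (log2 fold change 0.88, adjusted p = 7.68e-05). PLAU, the urokinase gene, rose by 0.66 on the log2 scale (adjusted p = 0.000365). SPP1, which encodes osteopontin, rose from 1.48 ± 0.623 to 4.68 ± 0.347 CPM (log2 fold change 1.66, adjusted p = 0.00178). In AREG the groups lay far apart. Shikonin replicate 1 was the lowest of its group in AREG and the highest in SPP1. ITGA2, an integrin subunit, fell (log2 fold change -0.48, adjusted p = 0.00156), as did CCND1, which encodes cyclin D1 (log2 fold change -0.28, adjusted p = 0.0318). The number that fell was 1 when control replicate 1 or 3 was left out, and also when shikonin replicate 1 or 3 was. With scaling by library totals alone, or with a length and GC offset, 4 were lower. The metalloproteinase genes MMP3, MMP7, MMP9, MMP10 and MMP13, common AP-1 targets elsewhere, had too few counts to be tested. Whether any AP-1 protein bound these genes was not measured.

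**Figure D5:**
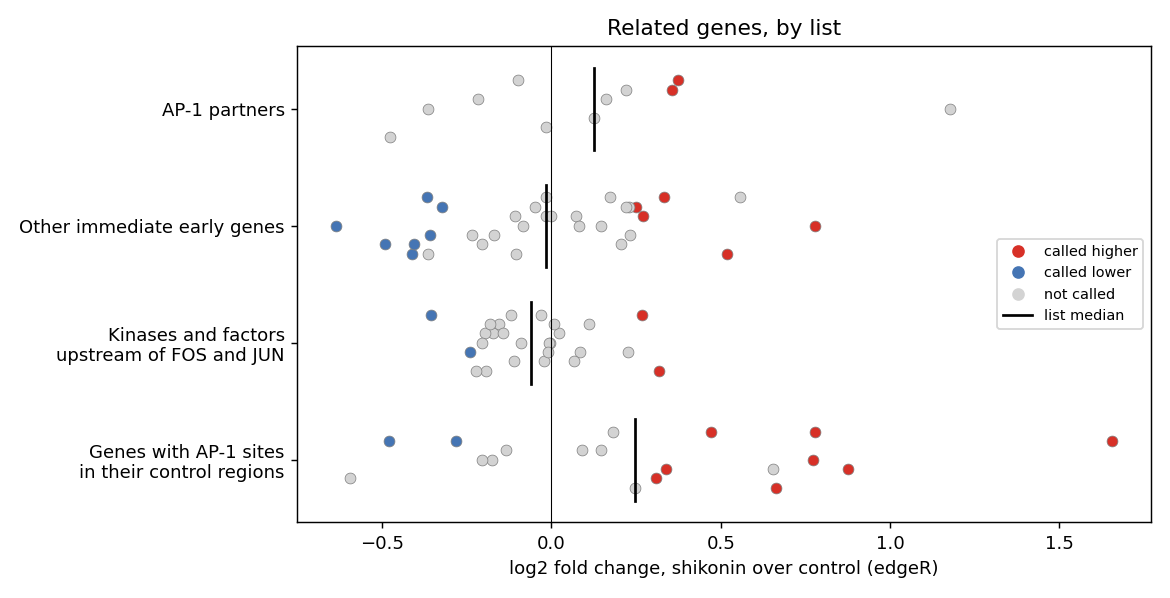
Log2 fold change of shikonin over control for the tested genes of the 4 lists, from edgeR, with red points for genes called higher, blue for lower, grey for those not called and a black line at the median of each list. The medians are 0.12 for the partners, -0.015 for the other immediate early genes, -0.060 for the kinases and factors upstream and 0.25 for the genes with AP-1 sites, where 8 points are red.

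Leaving IER3 aside, the 6 called members had groups that did not overlap, 2 of them higher and 4 lower, and FOS, JUN and JUND had groups that did, against 38.3% of all tested genes without overlap in either direction. The groups of IER3 did not overlap either, but it is not counted here, because it passed the filter on low counts through the group where it was higher. With 3 libraries against 3, an exact two-sided permutation test of a single gene cannot go below 0.1. The members have transcripts of 1237 to 6713 bases with 52.8% to 69.9% GC, against medians of 3265 bases and 49.3% over all tested genes. With a length and GC offset the same 6 members were called, FOSL1 with a log2 fold change of 0.73, FOSL2 with -0.31 and JUNB with -0.53.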

How the data were processed

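The authors sequenced paired-end reads from 6 HCT116 libraries, aligned them to hg38 with TopHat2 and counted them with featureCounts, per the paper's methods. Versions and annotation release are not given in the sources used here, and the notes of the submitters list GRCm38 and mm10, which are mouse builds, although the gene identifiers are human. The deposited values are estimated counts per gene without scaling. Fractional values made up 46.5% to 63.3% of those above 0, per library, although the methods name featureCounts, and all were rounded. Which counting gave the fractional values is not stated. Of 35106 identifiers, 34979 matched GENCODE release 44 (GRCh38).

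Genes were kept by filterByExpr, TMM-scaled (trimmed mean of M values) and compared in R 4.3.3 with edgeR 4.0.16 (glmQLFit and glmQLFTest, 2 groups, no further term), with Benjamini-Hochberg adjustment over all genes kept. Standard errors were obtained from the F statistic, and 95% intervals use the degrees of freedom of the test. Alternatives used DESeq2 1.42.0, limma-voom (limma 3.58.1), other scalings and filters, a replicate block, a length and GC offset (splines with 5 degrees of freedom), counts not rounded, a test against a fold of 1.5, and each library left out. The procedure was tested on simulated data. No pair of libraries within a group agreed within sampling noise. All members are named, and from each list up to 4 called genes per direction with the smallest p, except 1 gene that is not reported here. The members and the lists were chosen with earlier results of these data known. Of the members, IER3 alone had under 50 counts in every library.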

Additional observations from a re-analysis of the deposited data

How the results depend on the processing

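FOSL1, FOSB, EGR1, JUNB and FOSL2 kept their direction in all 17 alternatives and their call in all but the test against a fold of 1.5. In that test 0 members were higher and 0 lower, with 38 genes higher and 24 lower over the whole table and 0 called in each of the 4 lists in either direction. IER2 lost its call in 6 of 17. Among the members, the log2 fold change of FOS alone changed sign, and without 1 library each it ran from -0.034 to 0.55. With scaling by library totals alone, 3 other immediate early genes and 1 upstream gene were higher, and 1 AP-1 partner, 5 upstream genes and 4 genes with AP-1 sites were lower. With the offset for length and GC content, 1 upstream gene and 4 genes with AP-1 sites were lower. Leaving out 1 library gave 861 to 2074 higher and 776 to 1901 lower genes, 2 to 4 higher and 0 to 1 lower partners, 3 to 9 higher immediate early genes, 0 to 2 higher and 1 to 5 lower upstream genes, and 1 to 3 lower genes with AP-1 sites. The causes were not tested.

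Same-numbered libraries gave no sign of a pairing: their deviations from the group mean correlated at -0.082, -0.12 and -0.014 over 11826 genes. Libraries with unlike numbers correlated at -0.12 to 0.23. Deviations within a group depend on each other, so these values cannot exclude a pairing. With the replicate block in edgeR, IER2 was not called (adjusted p = 0.0574), 3 other immediate early genes were higher, and 1 upstream gene and 1 gene with AP-1 sites were lower. With the block in DESeq2, 781 genes were lower, with 1 upstream gene among them. For IER3, DESeq2 gave no adjusted p. IER3 had the lowest counts of the members, 2.14 to 24.8 per library.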
